A study of Rattus norvegicus with 28 samples.

Results

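The genes described here are Gad1 (ENSRNOG00000000007) and Gad2 (ENSRNOG00000018200), which encode the enzymes that make the inhibitory transmitter GABA. They are 2 of the 26405 gene identifiers counted in each library, and both are among the 15413 that passed the filter on low counts. The pair was selected by identifier, with earlier results of these data in view. The selection rule states no measured value, so which values drew attention to the pair is not known, and the tests below describe the pair without being independent evidence for it. The count files hold identifiers without names. The names Gad1 and Gad2 come with the selection rule, and 0 identifiers could be matched in the gene table at hand, whose Ensembl column is empty.

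RNA-seq was run on punches of orbitofrontal cortex from Sprague Dawley rats that had been trained to self-administer methamphetamine (meth), a psychostimulant, or saline through an intravenous catheter. Rats were taken from the home cage at withdrawal day 2 or day 35, and each library is RNA pooled from 2 rats. The 4 groups were day 2 saline, day 2 meth, day 35 saline and day 35 meth, with 4 libraries each; the labels write the days as short and long, and the numbers come from the series' design text. The 12 central amygdala samples that the series lists were not analysed here. Age and sex are not given in the labels of these samples. All groups had the surgery and the training, so the saline groups are controls for the drug and not untreated animals. A pool hides the variation between its 2 rats.

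GABA is made from glutamate in 1 step, by glutamate decarboxylase, and vertebrates carry a pair of genes for that enzyme. The product of Gad1 is spread through the cell body and processes and supplies most of the GABA a neuron holds at rest. The product of Gad2 is anchored to membranes at nerve endings, close to synaptic vesicles, and is needed when release is sustained. In the cortex both genes are markers of GABA neurons, most of which are local interneurons, while the more numerous pyramidal cells use glutamate. Tissue RNA adds these cells together, so fewer GABA neurons in a punch and less Gad RNA per neuron cannot be told apart. Markers of GABA neurons, of other cell types and of tissue next to the cortex could not be read for lack of gene names, so the makeup of the punches was not tested.

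The letters around the start sites of the genes are shown because the readings of the pair rose and fell together across libraries, as described below. Whether these letters have any part in that was not tested. Both genes matched by symbol in the promoter windows of RefSeq (build GRCr8), which run from 250 bases before the start site to 50 after it. The genes lie on different chromosomes, Gad1 at chr3:75777202-75777501 and Gad2 at chr17:89671468-89671767, both on the plus strand. Capitals mark, from left to right in Gad1, a TATA box, a stretch holding an EGR and an SP1 motif that overlap, and the longest run of letters the windows share; in Gad2 they mark that shared run alone.
Gad1: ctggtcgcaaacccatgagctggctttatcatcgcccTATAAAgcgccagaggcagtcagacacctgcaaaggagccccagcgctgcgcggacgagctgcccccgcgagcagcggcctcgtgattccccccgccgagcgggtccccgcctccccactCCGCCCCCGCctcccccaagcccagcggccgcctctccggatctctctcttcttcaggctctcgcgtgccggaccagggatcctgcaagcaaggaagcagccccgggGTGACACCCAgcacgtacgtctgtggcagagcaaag
Gad2: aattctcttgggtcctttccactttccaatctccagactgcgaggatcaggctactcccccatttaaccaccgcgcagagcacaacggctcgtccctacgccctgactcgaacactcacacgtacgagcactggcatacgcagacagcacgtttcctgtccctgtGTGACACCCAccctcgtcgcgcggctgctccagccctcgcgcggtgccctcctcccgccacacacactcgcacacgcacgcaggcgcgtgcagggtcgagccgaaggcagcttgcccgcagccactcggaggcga

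Of 8 motifs searched on both strands, Gad1 held 3 and Gad2 held none. The letters TATAAA began 213 bases before the Gad1 start site and are found in 14.2% of all 33469 windows of this length. Whether they act as a TATA box for this start site was not tested. The Gad1 window also held GCGNGGGCG, the letters of the EGR motif, and GGGCGG, those of the SP1 motif, both on the minus strand and overlapping each other. These are found in 4.98% and 33.1% of all windows. Both motifs are made up almost wholly of G and C, as was 67.7% of the Gad1 window, against a median of 51.7%. Their shares among windows of like makeup were not measured. No match to TGACGTCA (cAMP response element, 1.83% of windows), TGACG (its shorter form, 21.2%), TGANTCA (AP-1, 7.33%), CACGTG (E-box, 6.42%) or TAATTA (homeodomain, 5.36%) was present in either window. The longest run that the windows share is GTGACACCCA, 10 letters that lie after the start site in Gad1 and before it in Gad2. It was picked after the windows were compared, and 30 of all windows (0.0896%) hold it. That share does not tell how rare such a shared run is, because the longest run of other pairs of windows was not measured. Both windows were rich in CpG, with 26 in Gad1 and 29 in Gad2 against a median of 7. These matches describe the letters and say nothing of which factors bind.

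Libraries held 20.33 to 48.47 M gene counts (M is 1000000 reads), and the day 2 saline libraries were the shallowest (20.33 to 23.54 M). Levels are counts per M (CPM), with library sizes scaled by edgeR's TMM method. Day 2 meth replicate 4 and day 2 saline replicate 13 lay farthest out on the first principal component of all genes. These same libraries had the highest Gad1 and the highest Gad2 of their groups, so results are also given without them. Each group carries 1 sequencing index, so index and group cannot be told apart.

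Gad1 was read 5576 to 11707 times per library. In day 2 saline libraries its level was 273 CPM in replicate 13, 254 in replicate 14, 268 in replicate 15 and 248 in replicate 16. In day 2 meth libraries it was 279.7 CPM in replicate 1, 269.7 in replicate 2, 281 in replicate 3 and 297 in replicate 4. Of the 4 meth libraries, 3 lay above every saline library of that day, and replicate 2 fell within the saline range. In day 35 saline libraries the level was 243 CPM in replicate 9, 259 in replicate 10, 260.3 in replicate 11 and 266 in replicate 12. In day 35 meth libraries it was 254 CPM in replicate 5, 259.8 in replicate 6, 253 in replicate 7 and 252 in replicate 8. At this later day the meth libraries sat inside the range of the saline ones.

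Gad2 was read 2026 to 4285 times per library and followed the same order of groups. In day 2 saline libraries its level was 99.4 CPM in replicate 13, 92.5 in replicate 14, 93.6 in replicate 15 and 92.9 in replicate 16. In day 2 meth libraries it was 104.2 CPM in replicate 1, 96.5 in replicate 2, 104.7 in replicate 3 and 113 in replicate 4. Again 3 of the 4 meth libraries lay above all saline libraries of that day, and replicate 2 was below the highest of them. In day 35 saline libraries the level was 89.0 CPM in replicate 9, 89.2 in replicate 10, 93.2 in replicate 11 and 93.6 in replicate 12. In day 35 meth libraries it was 90.5 CPM in replicate 5, 93.3 in replicate 6, 89.9 in replicate 7 and 88.6 in replicate 8. The day 35 groups overlapped, and every day 35 meth library lay below every day 2 meth library.

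**Figure D1:**
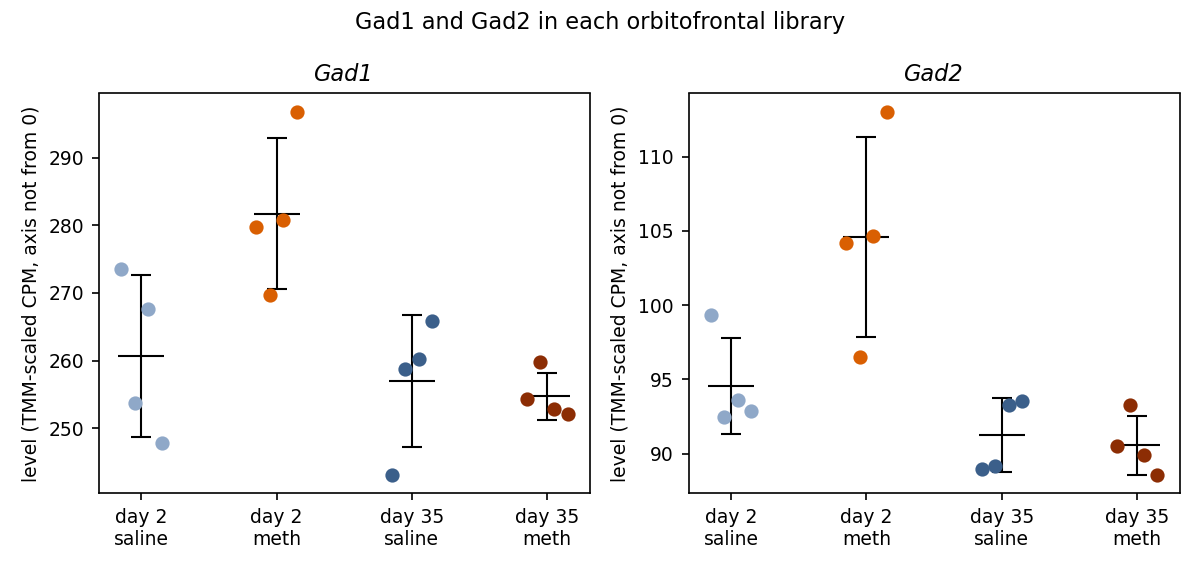
Level of Gad1 (left) and Gad2 (right) in CPM for each of the 16 libraries by group; points are libraries, horizontal marks are group means and bars are 1 SD (n = 4). For both genes the day 2 meth libraries have the highest mean (282 and 104.6 CPM) and the other 3 groups lie close together.

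By group mean, Gad1 stood at 282 ± 11.2 CPM (SD, n = 4 here and below) in day 2 meth, 261 ± 11.9 in day 2 saline, 257 ± 9.75 in day 35 saline and 255 ± 3.49 in day 35 meth libraries. Gad2 stood at 104.6 ± 6.74, 94.6 ± 3.23, 91.2 ± 2.51 and 90.6 ± 1.98 CPM in the same order. For Gad1 the means of the lower 3 groups lay within 1 SD of their neighbour. For Gad2 the gap between day 2 saline and day 35 saline was slightly more than the SD of either group, and the day 35 groups lay within 1 SD of each other. The order of group means was thus the same for both genes, with day 2 meth the highest. Its replicate 2 lay within the day 2 saline range for both genes, so those groups overlapped. The genes varied together across libraries, as described below, so their shared order is not separate evidence.

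The spread between pools was small, and larger than counting error in all 4 groups for both genes. For Gad1 the coefficient of variation was 1.37% in day 35 meth, 3.79% in day 35 saline, 3.98% in day 2 meth and 4.58% in day 2 saline libraries, against a counting error of 0.979 to 1.30% on average. For Gad2 it was 2.19% in day 35 meth, 2.75% in day 35 saline, 3.42% in day 2 saline and 6.44% in day 2 meth libraries, against 1.64 to 2.16% from counting. Day 35 meth thus had the tightest replicates of both genes. Pooled within groups, the SD on the log2 scale was 0.053 for Gad1 and 0.058 for Gad2. The median was 0.049 over the 730 genes whose mean level was within 1.5-fold of Gad1, and 0.054 over the 1952 within 1.5-fold of Gad2.

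The first comparison asked whether meth and saline rats differed at day 2, early in withdrawal. Neither gene was called at an adjusted p under 0.05, where 0.11% of all genes tested were called (17 genes). The readings of both were higher in meth rats. Gad1 differed by a log2 fold change of 0.11 (edgeR adjusted p = 0.26, SE 0.037), or 1.08-fold with a 95% confidence interval of 1.03 to 1.14. Gad2 differed by 0.15 (edgeR adjusted p = 0.19, SE 0.040), or 1.11-fold (interval 1.04 to 1.17). These intervals are not adjusted for the number of genes tested, and by unadjusted p the genes ranked 373 and 157 of 15413. With both outlying libraries (meth replicate 4 and saline replicate 13) left out the log2 fold changes were 0.11 for Gad1 and 0.13 for Gad2 (edgeR adjusted p = 0.58 and 0.50). The unadjusted edgeR p was then 0.011 for Gad1 and 0.0035 for Gad2, against 0.0063 and 0.0019 with all libraries.

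At day 35, late in withdrawal, the levels of both genes were nearly equal in meth and saline rats. edgeR called no gene in this comparison (0%), with 902 genes at an unadjusted p under 0.05, while limma-voom called 0 and DESeq2 called 8. Gad1 had a log2 fold change of -0.01 (edgeR adjusted p = 0.99, SE 0.036), and the interval of its fold change was 0.941 to 1.05. Gad2 had a log2 fold change of -0.01 (edgeR adjusted p = 0.99, SE 0.040), with an interval of 0.937 to 1.05. The sign of so small a difference turned without day 35 saline replicate 12 for both genes, and for Gad2 also without day 35 saline replicate 11 or day 35 meth replicate 8 (values up to 0.005).

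Day 35 meth libraries were compared with day 2 meth libraries, which are pools of other rats, and both genes were lower at day 35. This comparison called 1.83% of all genes tested (282 genes, 213 of them lower at day 35), and both members were among the lower ones. Gad1 was lower by 0.15 on the log2 scale (edgeR adjusted p = 0.046, SE 0.036), which makes day 2 levels 1.11-fold those of day 35. Gad2 was lower by 0.21 (edgeR adjusted p = 0.010, SE 0.040), or 1.15-fold. All 4 day 35 meth libraries lay below all 4 day 2 meth libraries for both genes, a separation that 6.44% of all genes tested showed in this direction. In size the changes were modest. Of all genes tested, 16.4% had a negative log2 fold change at least as large as that of Gad1, and 11.2% one as large as that of Gad2. These shares count genes of every level, and the median SD within groups over all genes was 0.099 on the log2 scale. It was 0.049 over genes near the level of Gad1 and 0.054 near that of Gad2. Shares among genes of like level were not measured. By unadjusted p (edgeR) Gad1 ranked 263 and Gad2 77 of 15413. The call on Gad1 was near the threshold. It was lost with lane as a replicate block (edgeR adjusted p = 0.063), and 15 of 25 alternatives lost it in all, among them those without any 1 of meth replicates 1, 3, 4, 5, 6, 7 or 8, or of saline replicates 10, 11, 12 or 14 (edgeR adjusted p up to 0.17, without day 2 meth replicate 4). The call on Gad2 was lost in 2 of 25, without day 2 meth replicate 4 (edgeR adjusted p = 0.051) and with all libraries thinned to the depth of the shallowest (0.054). With both outlying libraries (meth replicate 4 and saline replicate 13) left out, Gad1 was not called (edgeR adjusted p = 0.14) and Gad2 was (0.039).

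**Figure D2:**
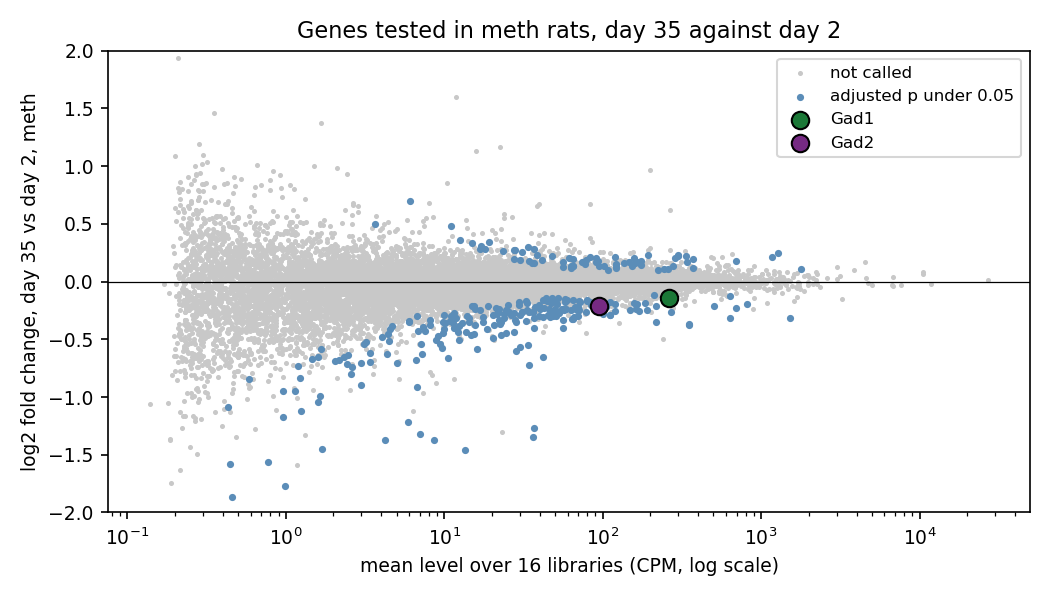
Each gene tested, by its mean level over 16 libraries (CPM, log axis) and its log2 fold change between day 35 and day 2 in meth rats; blue points are genes called at an adjusted p under 0.05, and 2 genes lie beyond the axis limit of 2. Gad1 (-0.15) and Gad2 (-0.21) both lie below zero, inside the range over genes of every level. That range is not a comparison with genes of their own level.

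In saline rats neither gene was called between the same days. edgeR called no gene there (0%), with 1338 genes at an unadjusted p under 0.05, limma-voom called 0 and DESeq2 called 38. The log2 fold change of Gad1 was -0.02 (edgeR adjusted p = 0.93, SE 0.037), and that of Gad2 was -0.05 (edgeR adjusted p = 0.76, SE 0.040). The fold intervals were 0.935 to 1.04 and 0.910 to 1.02. For Gad1 the sign turned without day 35 saline replicate 9 (0.006) or day 2 saline replicate 13 (0.001). For Gad2, without day 2 saline replicate 13, the library with its highest level in that group, and day 2 meth replicate 4 together, the change was -0.03.

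A call in meth rats and none in saline rats does not show that the drug groups differ, so that difference was tested directly, as the change of the meth effect from day 2 to day 35. Neither gene was called, where 0.136% of genes tested were (21 genes). For Gad1 the later meth effect minus the earlier one was -0.12 on the log2 scale (unadjusted p = 0.026, edgeR adjusted p = 0.43, SE 0.051). For Gad2 it was -0.16 (unadjusted p = 0.013, edgeR adjusted p = 0.37, SE 0.057). The unadjusted p of Gad1 was above 0.05 without day 2 meth replicate 4 (0.079), day 2 saline replicate 14 (0.057) or 16 (0.072), day 35 saline replicate 11 (0.0501) or 12 (0.067), or day 35 meth replicate 8 (0.051). Over 24 alternatives the adjusted p lay between 0.35 and 0.67 for Gad1 and between 0.26 and 0.61 for Gad2. The comparisons share groups, the day 2 meth libraries entering 3 of them, so their values are set side by side and are not separate pieces of evidence.

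**Figure D3:**
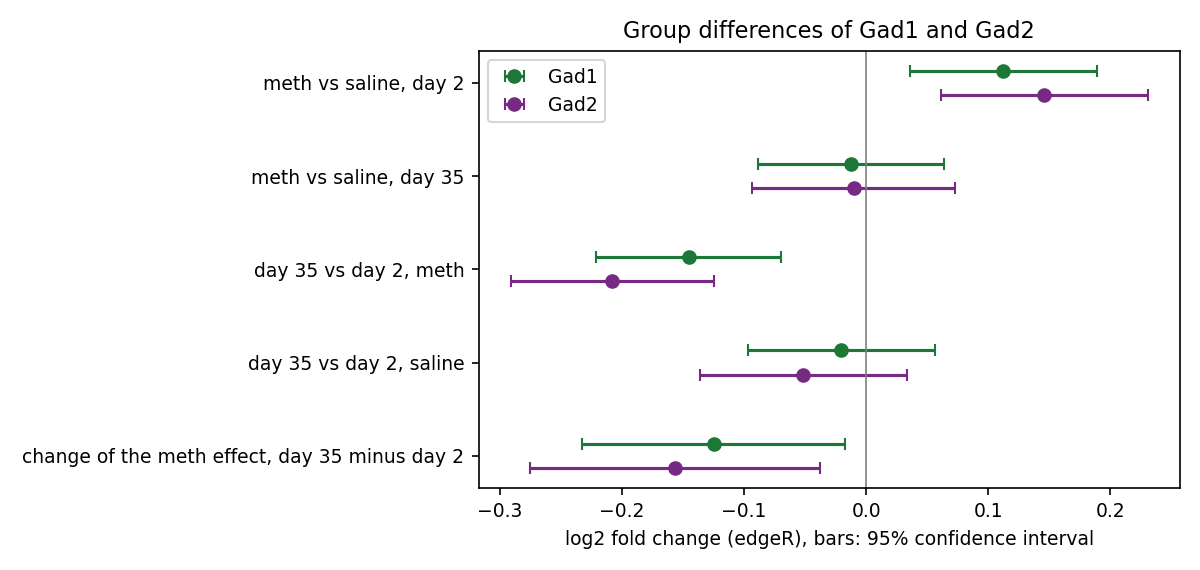
Log2 fold changes of Gad1 and Gad2 in the 5 comparisons with 95% confidence intervals that are not adjusted for the number of genes tested; the vertical line is no difference. Both genes lie to the left in meth rats at day 35 against day 2 (-0.15 and -0.21) and at zero between meth and saline rats at day 35 (-0.01 each).

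Whether the genes changed by the same amount was read from their count ratio within each library, which needs no scaling. The ratio also carries the genes' lengths, so only its differences between libraries are read. Across the 16 libraries Gad1 had 2.63 to 2.90 reads for each Gad2 read. The mean ratio was 2.70 ± 0.070 in day 2 meth, 2.76 ± 0.079 in day 2 saline, 2.81 ± 0.025 in day 35 meth and 2.82 ± 0.072 in day 35 saline libraries (SD, n = 4). The lowest 1 of all 16 was day 2 meth replicate 4, at 2.63, and the day 2 meth group had the lowest mean. In meth rats the ratio was 4.33% higher at day 35 than at day 2 (0.06 on the log2 scale, exact permutation test, two-sided p = 0.057, adjusted over 5 comparisons 0.29), where the smallest p possible with 4 against 4 is 0.029. Of the 4 day 2 libraries, replicate 2 (2.79) overlapped the day 35 range, and without it the test gave p = 0.029 in the exact permutation test, the smallest possible there. In saline rats the ratio was 2.20% higher at day 35 (exact permutation p = 0.31), the meth rats differed from the saline rats by -2.15% at day 2 (exact permutation p = 0.31), and by -0.11% at day 35 (exact permutation p = 0.94). The change of the meth effect on the ratio was 0.03 on the log2 scale (exact permutation p = 0.39). These small values changed in size when 1 library was left out, and those listed next kept their sign. Leaving out 1 library in turn gave log2 differences of 0.016 to 0.049 between days in saline rats, lowest without day 2 saline replicate 16 and highest without replicate 15. Between meth and saline rats at day 2 it gave -0.048 (without day 2 meth replicate 2) to -0.013 (without day 2 saline replicate 15). The change of the meth effect on the ratio lay between 0.012 (without day 2 saline replicate 15) and 0.047 (without day 2 meth replicate 2). No comparison of the ratio passed the test after adjustment. Within groups the ratio scattered by 0.034 on the log2 scale, close to the 0.031 that counting error alone gives.

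**Figure D4:**
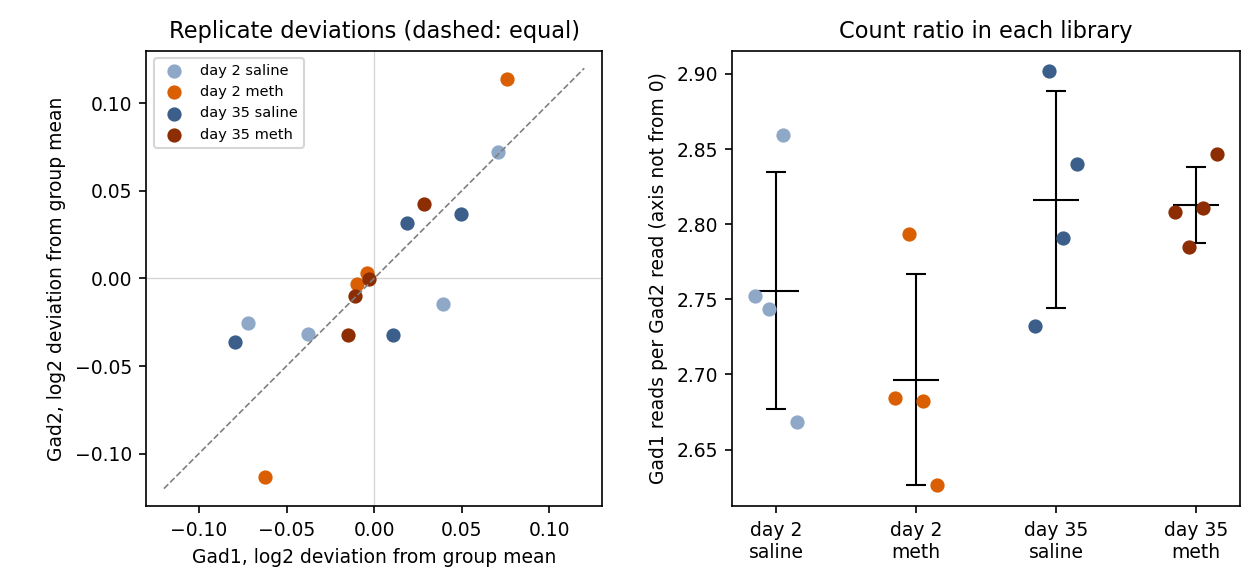
Left, deviation of each library from its group mean on the log2 scale for Gad1 (horizontal) and Gad2 (vertical), with the dashed line of equal deviations; right, Gad1 reads per Gad2 read in each library with group means and 1 SD (n = 4). In 13 of 16 libraries both genes deviate the same way, and the ratio stays between 2.63 and 2.90.

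The genes also varied together between replicate pools of the same group. Deviations from the group means had the same sign in 13 of 16 libraries. Their Pearson r was 0.82 (exact permutation within groups, two-sided p = 3.6e-05) and Spearman's rho was 0.81 (p = 0.00016, same exact permutation). These p-values are not adjusted. The pair was selected with earlier results in view and each gene was also correlated with all other genes, so they describe the pair and are not independent evidence. Without the libraries farthest from the median in Gad1, day 2 meth replicate 4 and day 35 saline replicate 9, r was 0.76 (n = 14, exact permutation p = 0.00048). Lanes held 4 libraries each, too few for a value within a lane, and with lane means removed as well r was 0.84 (exact permutation p = 0.00028). The largest joint deviations were in day 2 meth, where replicate 4 was above its group mean by 0.08 in Gad1 and 0.11 in Gad2 on the log2 scale, and replicate 2 deviated by -0.06 and -0.11. The readings of a library share its depth, its scaling and its punches.

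Over all 16 libraries, group differences included, Gad1 and Gad2 correlated with r = 0.93 and rho = 0.93 (permutation p = 1e-05 for each, the smallest that 100000 draws can give), and without day 2 meth replicates 3 and 4, farthest from the median in Gad1, with r = 0.85. Of the 13560 other genes with a mean of at least 1 CPM, Gad2 had the highest r with Gad1, and Gad1 had the highest r with Gad2. The median r over those genes was 0.008 with Gad1 and 0.006 with Gad2. With group means removed, Gad1 still ranked 1 in likeness to Gad2, and Gad2 ranked 4 in likeness to Gad1. Next after Gad2 in likeness to Gad1 was ENSRNOG00000003887 (r = 0.83), and next after Gad1 in likeness to Gad2 was ENSRNOG00000015393 (r = 0.89), 2 identifiers that the files do not pair with names and that were picked after their values were seen. In meth rats both of these were also lower at day 35 than at day 2, with log2 fold changes of -0.34 and -0.16 (edgeR adjusted p = 0.017 and 0.024). Genes are not independent replicates, and these ranks describe the 16 libraries alone.

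**Figure D5:**
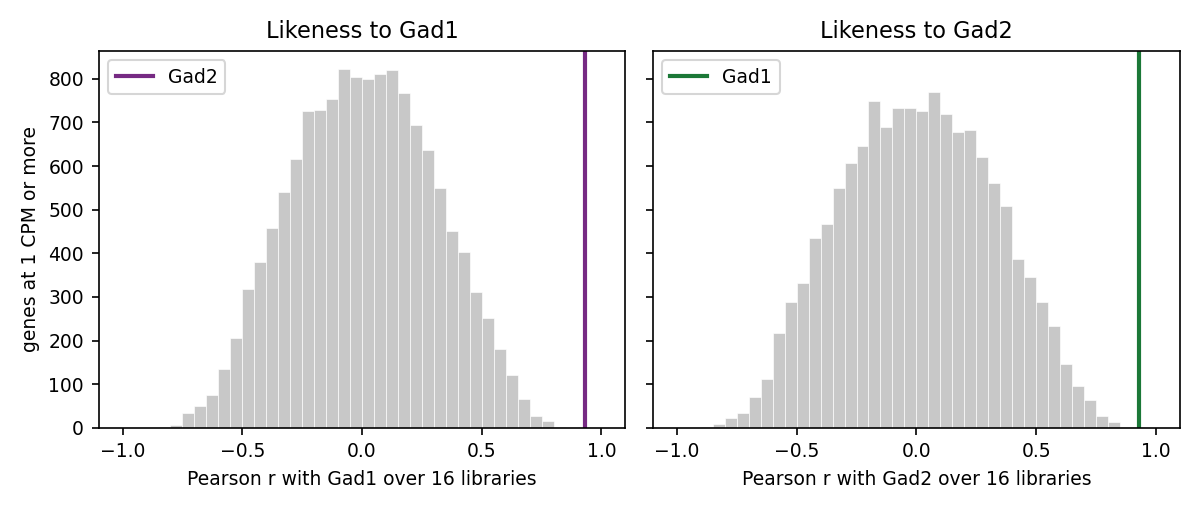
Number of genes, among those with a mean of 1 CPM or more, by Pearson r with Gad1 (left) and with Gad2 (right) over the 16 libraries; the coloured line marks the other gene of the pair. Both lines stand at r = 0.93, to the right of every remaining gene.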

How the data were processed

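Per the labels' protocols, poly(A) RNA was made into TruSeq v2 libraries and sequenced on an Illumina HiSeq instrument. The deposited values are raw counts per Ensembl gene, 1 file per library, made by the authors with TopHat and HTSeq on build rn4 per the submitters' processing notes, which also name limma. Neither their versions nor the annotation and strand setting are stated in those sources, so reads of overlapping antisense genes may be included. The 5 summary rows of HTSeq (31.1 to 32.6% of reads, multi-mapping reads among them) were left out.

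Genes passing filterByExpr were scaled with TMM and fitted over all 16 libraries as 4 group means by edgeR 4.0.16 in R 4.3.3 (robust quasi-likelihood, glmQLFit and glmQLFTest). P-values were Benjamini-Hochberg adjusted over all 15413 genes, with a threshold of 0.05. The pipeline was checked on simulated data with planted differences larger than those of Gad1 and Gad2. That check does not cover differences of their size. Ratios and the within-group correlation were tested by exact permutation over libraries. The correlation over all 16 libraries was tested with 100000 random permutations that ignored the groups. P-values of group differences set the difference against the spread between pools of 2 rats, not between single rats.

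Alternatives were median-ratio size factors, other filters, lane as a replicate block, limma-voom 3.58.1, DESeq2 1.42.0, fits of the compared groups alone and leaving out each library. Thinning and leaving out the pair of libraries farthest out were added after seeing the data. Lanes 1 to 4 held 1 library of each group, which pairs libraries by a shared lane; deviations of same-lane pairs correlated by 0.026 on average (-0.27 to 0.24). No libraries of a group were duplicates (chi-square at least 5.19 times its degrees of freedom).

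The members and lists were chosen with earlier results of these data known. Named genes were to be the members, called genes of 3 lists (GABA handling, interneuron identity and subtypes) and the genes most like each member; the lists and the cell type markers need symbols and could not be run.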

Additional observations from a re-analysis of the deposited data

Results flagged for a closer look

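In sets of 4 libraries, 1 value of 12 sets stood apart from the other 3 by Dixon's criterion for 4 values; chance gives about 1 in 20. It was Gad2 in day 2 saline replicate 13, at 99.4 CPM against 92.5 to 93.6 in the other libraries of its group. Gad1 was also highest of its group there (273 CPM), without standing apart. This is the shallowest library (20.33 M gene counts) and 1 of those farthest out on the first principal component. Without it the day 2 difference of Gad2 between meth and saline rats was 0.17 on the log2 scale (edgeR adjusted p = 0.20), against 0.15 with it.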

How the results depend on the processing

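The difference between day 2 and day 35 in meth rats kept its direction for both genes in all 25 alternatives. For Gad1 it missed the threshold with median-ratio size factors (-0.142, adjusted p = 0.052), no filter on low counts (-0.141, 0.051), lane as a replicate block (-0.145, 0.063), without the pair of libraries farthest out (-0.116, 0.14) and without 11 of the 16 libraries in turn (all 16: -0.163 to -0.116). For Gad2 it missed with counts thinned to the lowest depth (20.33 M) (-0.185, 0.054) and without day 2 meth replicate 4 (all 16: -0.242 to -0.164). The replicate block changed no other call. Leaving out 1 library turned the sign of the differences between meth and saline rats at day 35 (Gad1 -0.038 to 0.0050, Gad2 -0.023 to 0.0029, log2 count ratio -0.016 to 0.013) and of Gad1 between days in saline rats (-0.047 to 0.0057; without the farthest pair 0.0039). The log2 count ratio between days in meth rats was 0.049 to 0.078 without 1 library, with an exact permutation p under the unadjusted threshold only without day 2 meth replicate 2 (0.029). The within-group correlation was 0.76 to 0.87 under its 19 alternatives. The unadjusted p of Gad1 for the change of the meth effect was above 0.05 without any 1 of 6 libraries (up to 0.079). No other fold change, ratio or correlation changed direction or its side of the threshold on the adjusted p (fold changes) or the exact p (ratios and correlation). The causes were not tested.

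Counts of called genes moved more. DESeq2 called 73 genes at day 2 (17 with edgeR), 8 at day 35 (0), 560 between days in meth rats (282), 38 in saline rats (0) and 75 for the change of the meth effect (21). For that change 4 were called with the block, 8 with median-ratio factors, 9 with limma-voom or a filter at 1 CPM and 12 with thinned counts. Thinning left 169 genes in meth rats and 1 in saline rats. Without 1 library the counts were 6 to 21, 0 to 1, 104 to 305, 0 to 2 and 0 to 17 in the order given first.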
